A study of Homo sapiens with 4 samples.

Results

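The response of the control line of Jurkat cells to PMA and ionomycin was described here as 1 stimulated array set against 1 solvent array. The members were all genes of probe sets with a single symbol, 41091 of 54675 probe sets and 19775 genes, of which 26218 probe sets of 13717 genes reached a signal of 56.4, the median of all signals, on at least 1 of the 4 arrays of the study. The brightest probe set of a gene stands for it, and a gene was counted as higher or lower from a difference of 2-fold, a log2 change of 1. A log2 change is the stimulated minus the solvent value of log2(signal + 14.1), which understates the change of dim genes.

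Jurkat is an established human T cell leukaemia line. The control line carried a construct that is called a vector in the sample titles and a control hairpin in the design text, and was treated for 3 h, either with solvent alone or with PMA at 10 ng/ml together with ionomycin at 0.5 uM. The other 2 arrays hold the shIKKE line, Jurkat cells with a short hairpin RNA against the kinase IKKε, under the same 2 treatments. All 4 arrays carry 1 common treatment description, so that only their titles tell the stimulated from the solvent arrays, and the solvent array of the control line has high early-response genes, given with the array values. Each group is 1 array, so no difference has a replicate check, and all differences are given without a p-value. The labels give no clone, passage or culture for either line.

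PMA stands in for diacylglycerol: it activates protein kinase C and the RAS activators of the RASGRP family, which lead to MAP kinases and AP-1 factors, and also to NF-κB. Ionomycin carries calcium into the cell, where calcineurin dephosphorylates NFAT so that it enters the nucleus. In T cells these arms together replace the signal of the antigen receptor and switch on early transcription factors, then cytokines and surface receptors, with inhibitors of each arm among the induced genes.

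The mean after trimming 2% of the values at each end was the same on all 4 arrays, at 500.07, whereas the median signal was 48.8 on the solvent array and 59.8 on the stimulated array of the control line. For ACTB, the ratio of 5′ to 3′ signals of the array's controls, which falls with degraded RNA, was 0.244 on the solvent and 0.401 on the stimulated array, while that of GAPDH was 1.06 on both. All 13 measured T cell identity genes lay within 2-fold, with a summed signal of 79771 with solvent and 75421 with stimulation. CD3D, a chain of the T cell receptor complex, read 26586 and 28570.3, and the receptor-proximal kinase gene LCK read 22018 and 19919. The other cell type lists were dim, with summed signals of 201 and 226 for 11 myeloid genes, 475 and 452 for 7 natural killer genes, 478 and 315 for 6 erythroid genes and 199 and 359 for 8 epithelial genes. Of 9 B cell genes, which summed to 1809 and 1394, CR2, a complement receptor also seen in T cell leukaemia lines, was the brightest at 962 and 391, and it read 74 and 45.4 in the shIKKE line. Some single markers lay near the bottom of the scale, such as CD14 of monocytes at 2.89 and 7.77 and EPCAM of epithelia at 9.52 and 5.14. Others did not: NKG7 of natural killer cells read 326 and 269, and EPOR of erythroid cells 272 and 135. KRT8 of epithelia read 118 and 191, and the B cell genes BLK and CD79A read 416 and 336 and 223 and 345.

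The solvent array of the control line stood apart from that of the shIKKE line in genes that stimulation is known to induce. EGR1, an early zinc finger factor, read 9953 on the solvent array of the control line and 1035 on that of the shIKKE line. The early factor gene EGR4 read 1129 and 27.5 on the same arrays, and FOSB, an AP-1 subunit, read 1364 and 7.38. Of 25 AP-1 and EGR genes, 10 were at least 2-fold lower and none higher on the shIKKE solvent array, where 6.68% of all genes were lower and 4.34% higher. Genes of ribosome biogenesis were the reverse, with 13 of 47 higher and none lower there, as were 7 of 29 genes of cholesterol and fatty acid synthesis, with none lower. Changes in the control line are therefore also given over the shIKKE solvent array, called the other baseline. This adds the difference between the lines to that of the treatment.

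With stimulation, 1039 genes (7.57%) were higher and 884 (6.44%) lower. Among the 9208 genes with a mean signal of 200 or more over the 2 control arrays, 442 (4.8%) were higher and 410 (4.45%) lower. The largest changes were increases, since 178 genes were at least 4-fold higher against 88 lower, 45 were at least 8-fold higher against 4 lower, and 8 were at least 16-fold higher against 0 lower. The central 90% of genes lay between log2 -1.10 and 1.23, and the median of all genes was -0.07. Many calls touched the dim end of the scale: the lower signal of the pair was under 56.4 in 51.1% of the higher and 47.3% of the lower genes. Both signals reached 200 in 325 higher and 319 lower genes. With the other baseline the counts were 1100 (8.02%) higher and 601 (4.38%) lower, and in the shIKKE line, with its own solvent array, 1417 (10.3%) and 368 (2.68%). Scaling moved the balance too: quantile normalization gave 839 higher and 1121 lower, and arrays scaled to equal medians gave 686 and 1708, with the median of all genes at -0.34 in place of -0.07.

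**Figure D1:**
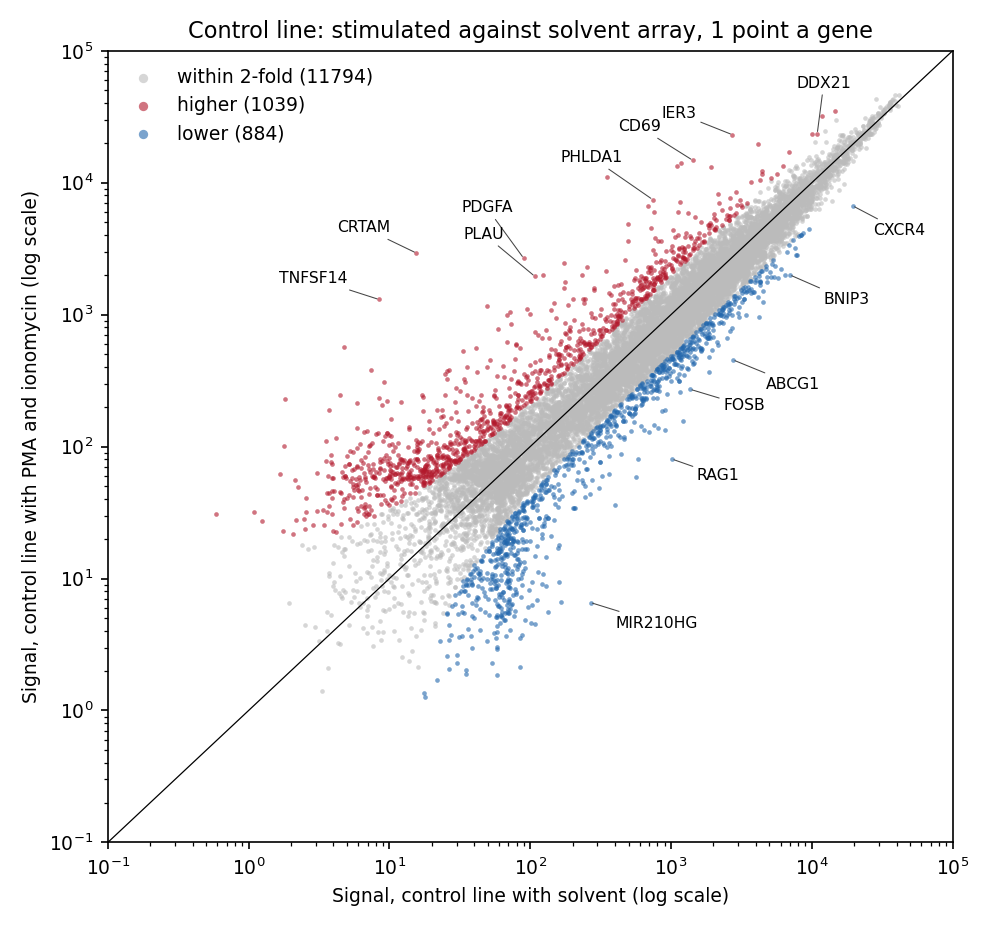
Signal of each of 13717 genes on the stimulated array (vertical, log scale) against the solvent array (horizontal, log scale) of the control line, 1 point a gene, with equal signal on the diagonal. Red points are the 1039 genes at least 2-fold higher and blue points the 884 at least 2-fold lower after the pseudocount, which moves the boundary away from the diagonal at low signal. CRTAM and TNFSF14 lie far above the diagonal and RAG1 and MIR210HG far below it.

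Genes with several probe sets that all differed at least 2-fold the same way are given first. Their probe sets share the RNA of the same 2 arrays, so their agreement does not replace a replicate. The 15 largest such increases were ligands, receptors, regulators and noncoding transcripts, and all 15 passed 2-fold in the shIKKE line too. TNFSF14, the TNF family ligand LIGHT, led them at 8.44 and 1303 (log2 5.87, and 2.14 by its dimmer probe set). PDGFA, a growth factor for connective tissue cells, read 89.7 and 2681 (log2 4.70 and 3.30). PLAU, the urokinase protease that activates plasminogen, read 108 and 1954 (log2 4.02 and 4.26). All 3 were dim or near background before stimulation and well measured after it. In RNA from whole cultures, more transcript per cell and a larger share of cells with the transcript cannot be told apart.

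Receptor genes for cytokines of the interleukin 12 and common γ chain families were in the same group. IL21R, the receptor for interleukin 21, read 71.8 and 1052 (log2 3.63, and 2.38 and 3.38 by 2 further probe sets). IL27RA, a chain of the interleukin 27 receptor, read 691 and 6684 (log2 3.25 and 2.82), so it was already well above background with solvent. NCR3, an activating receptor known from natural killer cells, read 5.90 and 137 (log2 2.92 and 1.67). The remaining coding genes of the 15 act inside the cell: SPSB1 (log2 3.32), a ubiquitin ligase adaptor; PHLDA1 (log2 3.31), an early gene linked to cell death; BAIAP2 (log2 3.17), an actin scaffold; NAB2 (log2 2.94), a corepressor of EGR factors; and RGS3 (log2 2.83), which shortens G protein signals.

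The upstream sequences of 3 higher genes are shown, picked because they hold motifs of factors that this stimulus is known to activate. Most named genes do not: of the named genes with the largest changes that are in the promoter table, 5 of 20 above 0 and 3 of 26 below 0 held a κB, AP-1 or CArG motif. Each is given 5′ to 3′ as the 250 bases before the start site, from RefSeq on GRCh38.p14. Capitals mark κB motifs in TNFSF14 and IL27RA, an AP-1 motif (TGANTCA) also in TNFSF14, and 2 CArG boxes, the motif of serum response factor, in EGR1.
TNFSF14, chr19:6670161-6670410, minus strand: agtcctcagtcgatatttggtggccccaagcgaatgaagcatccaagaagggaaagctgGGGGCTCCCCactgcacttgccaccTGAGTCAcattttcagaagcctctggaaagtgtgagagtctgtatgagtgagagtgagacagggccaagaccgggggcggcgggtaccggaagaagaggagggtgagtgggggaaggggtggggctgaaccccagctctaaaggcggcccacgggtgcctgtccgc
IL27RA, chr19:14031512-14031761, plus strand: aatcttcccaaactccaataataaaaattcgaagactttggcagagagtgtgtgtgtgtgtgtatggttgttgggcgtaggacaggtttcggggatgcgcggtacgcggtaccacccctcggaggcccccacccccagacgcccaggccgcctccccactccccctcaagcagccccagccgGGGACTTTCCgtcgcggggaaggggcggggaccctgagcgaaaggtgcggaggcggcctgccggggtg
EGR1, chr5:138465229-138465478, plus strand: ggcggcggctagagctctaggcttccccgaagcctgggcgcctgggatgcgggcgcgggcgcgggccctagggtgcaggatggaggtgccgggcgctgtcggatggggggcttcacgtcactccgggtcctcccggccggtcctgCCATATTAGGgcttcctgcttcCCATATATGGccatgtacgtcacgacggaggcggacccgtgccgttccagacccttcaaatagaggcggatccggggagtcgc
Both strands were searched from 250 bases before to 50 after each start site. Of 27305 promoters of that length, 5.72% held a κB motif, 7.76% the AP-1 motif and 1.29% a CArG box. Promoters were found for 73.1% of the higher and 78.4% of the lower genes, too few to give shares over the called genes, so these matches describe single genes and do not show binding.

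Noncoding transcripts were the other members of the 15, and they were as bright after stimulation as many coding genes. FTX, a long noncoding RNA of the X inactivation region, read 124 and 1999.5 (log2 3.87 and 1.88). MIAT, a long noncoding RNA found in several tissues, read 147 and 1218 (log2 2.93, and 2.75 to 3.64 by 3 further probe sets), and LINC00342 read 68.8 and 994 (log2 3.60). The transcript read by the probe sets of MIR142, a microRNA gene of blood cells, read 496 and 4903 (log2 3.27 and 3.42). In the opposite direction, MIR210HG, the host transcript of a microRNA known to be induced by low oxygen, read 268 and 6.58 (log2 -3.77 and -1.25).

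The array measures these host transcripts and not the mature microRNAs. The mature sequences from RefSeq, with positions on GRCh38.p14, are given to show which seeds the hosts carry, with the seed (bases 2 to 8) in capitals.
hsa-miR-142-3p, chr17:58331245-58331267, minus strand: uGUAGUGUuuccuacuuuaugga
hsa-miR-142-5p, chr17:58331283-58331303, minus strand: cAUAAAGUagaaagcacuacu
hsa-miR-210-3p, chr11:568112-568133, minus strand: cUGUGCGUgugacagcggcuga
hsa-miR-210-5p, chr11:568150-568171, minus strand: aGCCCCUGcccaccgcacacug
The 4 seeds differ from one another. Over 612 long noncoding and host transcripts, 92 were higher and 70 lower (15.03% and 11.44%), against 7.57% and 6.44% of all genes, with a median log2 change of 0.04 against -0.07. Most of them were dim, and among the 146 with a mean signal of 200 or more, 24 were higher and 15 lower.

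**Figure D2:**
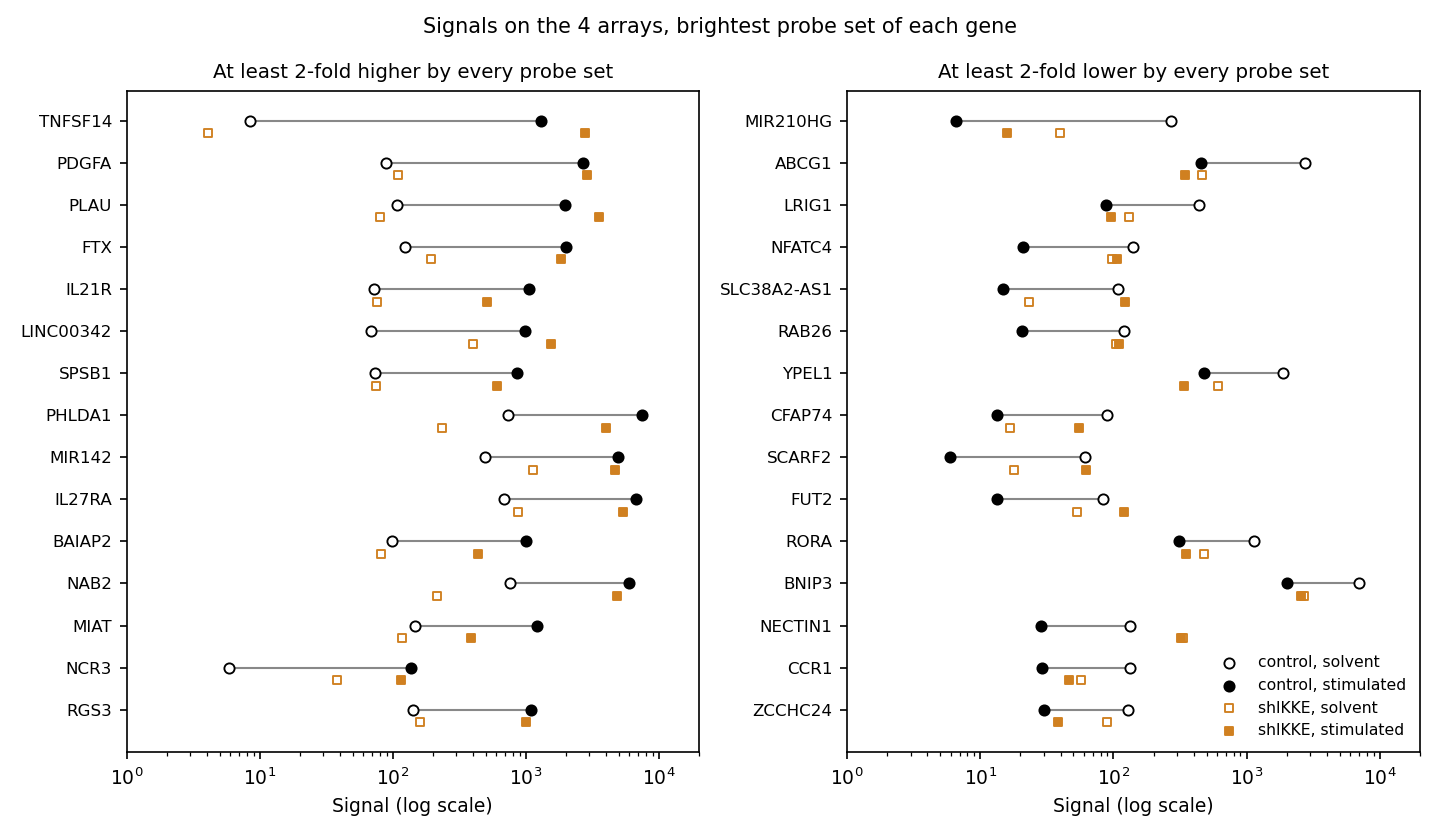
Signals on the 4 arrays (horizontal, log scale) of the 15 genes with the largest increase (left) and the 15 with the largest decrease (right) among genes whose probe sets were all at least 2-fold different the same way. Circles are the control line and squares the shIKKE line, open with solvent and filled with stimulation. On the left the shIKKE line moves with the control line, whereas on the right both shIKKE arrays often lie close together, near the stimulated control array for BNIP3, RORA and ABCG1.

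Apart from MIR210HG (log2 -3.77), the 15 largest decreases by the same rule were smaller than the increases. None of the 15 passed 2-fold downward in the shIKKE line. ABCG1, a cholesterol exporter, read 2755 and 454 in the control line (log2 -2.56, and -1.85 to -1.32 by 3 further probe sets) and 464 and 342 in the shIKKE line (log2 -0.42). RORA, a nuclear receptor of lymphocyte fate, read 1145 and 313 (log2 -1.83) and 479 and 352 (log2 -0.43) in the same order. With the other baseline the 2 genes were at log2 -0.03 and -0.59. YPEL1, a small zinc-binding protein, read 1875 and 479.9 (log2 -1.94, and -0.33 with the other baseline), and LRIG1, an inhibitor of growth factor receptors, read 441 and 87.7 (log2 -2.16 and -0.52). Several others were dim, such as CCR1, a chemokine receptor, at 134 and 28.9 (log2 -1.78) and NFATC4, a member of the NFAT family, at 140.5 and 20.9 (log2 -2.14). With the other baseline CCR1 and NFATC4 were at log2 -0.72 and -1.67.

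Among genes with 1 probe set, the largest increases included effector genes of lymphocytes, and the largest decreases recombinase and metabolic genes. ARC, an activity-regulated gene known from neurons, read 49 and 1170.2 (log2 4.23), and GZMB, a protease of cytotoxic granules, read 33.3 and 527 (log2 3.51). NPDC1 (5.88 and 215, log2 3.52) and TAGLN3 (3.72 and 189, log2 3.52), both better known from neural tissue, started near background. CRTAM, CCL4, IL2, TNF, DUSP5 and the uncharacterised LOC100505915 made up the rest of the 10. All 10 passed 2-fold in the shIKKE line as well.

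Of the 10 largest decreases in genes with 1 probe set, RAG1, RAG2, GAB2, PFKFB4, SERPINH1 and HYLS1 also passed 2-fold downward in the shIKKE line. HYLS1, a protein of centrioles and cilia, read 909 and 132 (log2 -2.65) against 1081 and 273 (log2 -1.93) in the shIKKE line. RND1, a small GTPase of the actin cytoskeleton, read 579 and 80.6 (log2 -2.65) against 107 and 139 (log2 0.34), and PRX, a scaffold protein of myelin, read 129 and 8.84 against 98 and 114. These last 2 genes lay within 2-fold in the shIKKE line (log2 0.34 and 0.19), and the difference between the lines was not tested.

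On the linear scale, the largest gains of signal were in early response genes and in transcripts of the mitochondrial genome. IER3, an early response gene that affects survival, gained most, from 2726 to 23106. DUSP2, a nuclear phosphatase of MAP kinases, went from 4147 to 19612, and CD69 and DUSP5 were among the 10 largest gains as well. ND4 and ATP6, subunits of complex I and of ATP synthase encoded in mitochondria, read 14698 and 34737 (log2 1.24) and 11887 and 31779.8 (log2 1.42). All 7 measured mitochondrially encoded transcripts were above 0 and 3 were at least 2-fold higher, with a median log2 change of 0.99 against -0.07 for all genes. The third was COX3 (873 and 2023, log2 1.20), while COX1, COX2, ND2 and ND6 lay within 2-fold. The median of the 7 was 0.36 with the other baseline and 0.29 in the shIKKE line. This list was added after the values had been seen. By contrast, none of 32 complex I subunits encoded in the nucleus was called, and their median was -0.22.

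The largest losses of linear signal were in CXCR4, the receptor for the chemokine CXCL12, and in IFI16, a DNA sensor. CXCR4 read 19526 and 6678 (log2 -1.55, and -1.90 and -1.86 by 2 further probe sets), and with the other baseline it was at log2 -1.21. IFI16 read 17061 and 9794 (log2 -0.80) and the lymphoid factor gene ETS1 15483 and 8761 (log2 -0.82), so both lay within 2-fold. MYL12B, a light chain of myosin, read 13989 and 7223 (log2 -0.95), and ACYP1, an acylphosphatase, read 7807 and 2827 (log2 -1.46) but 0.01 with the other baseline.

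**Figure D3:**
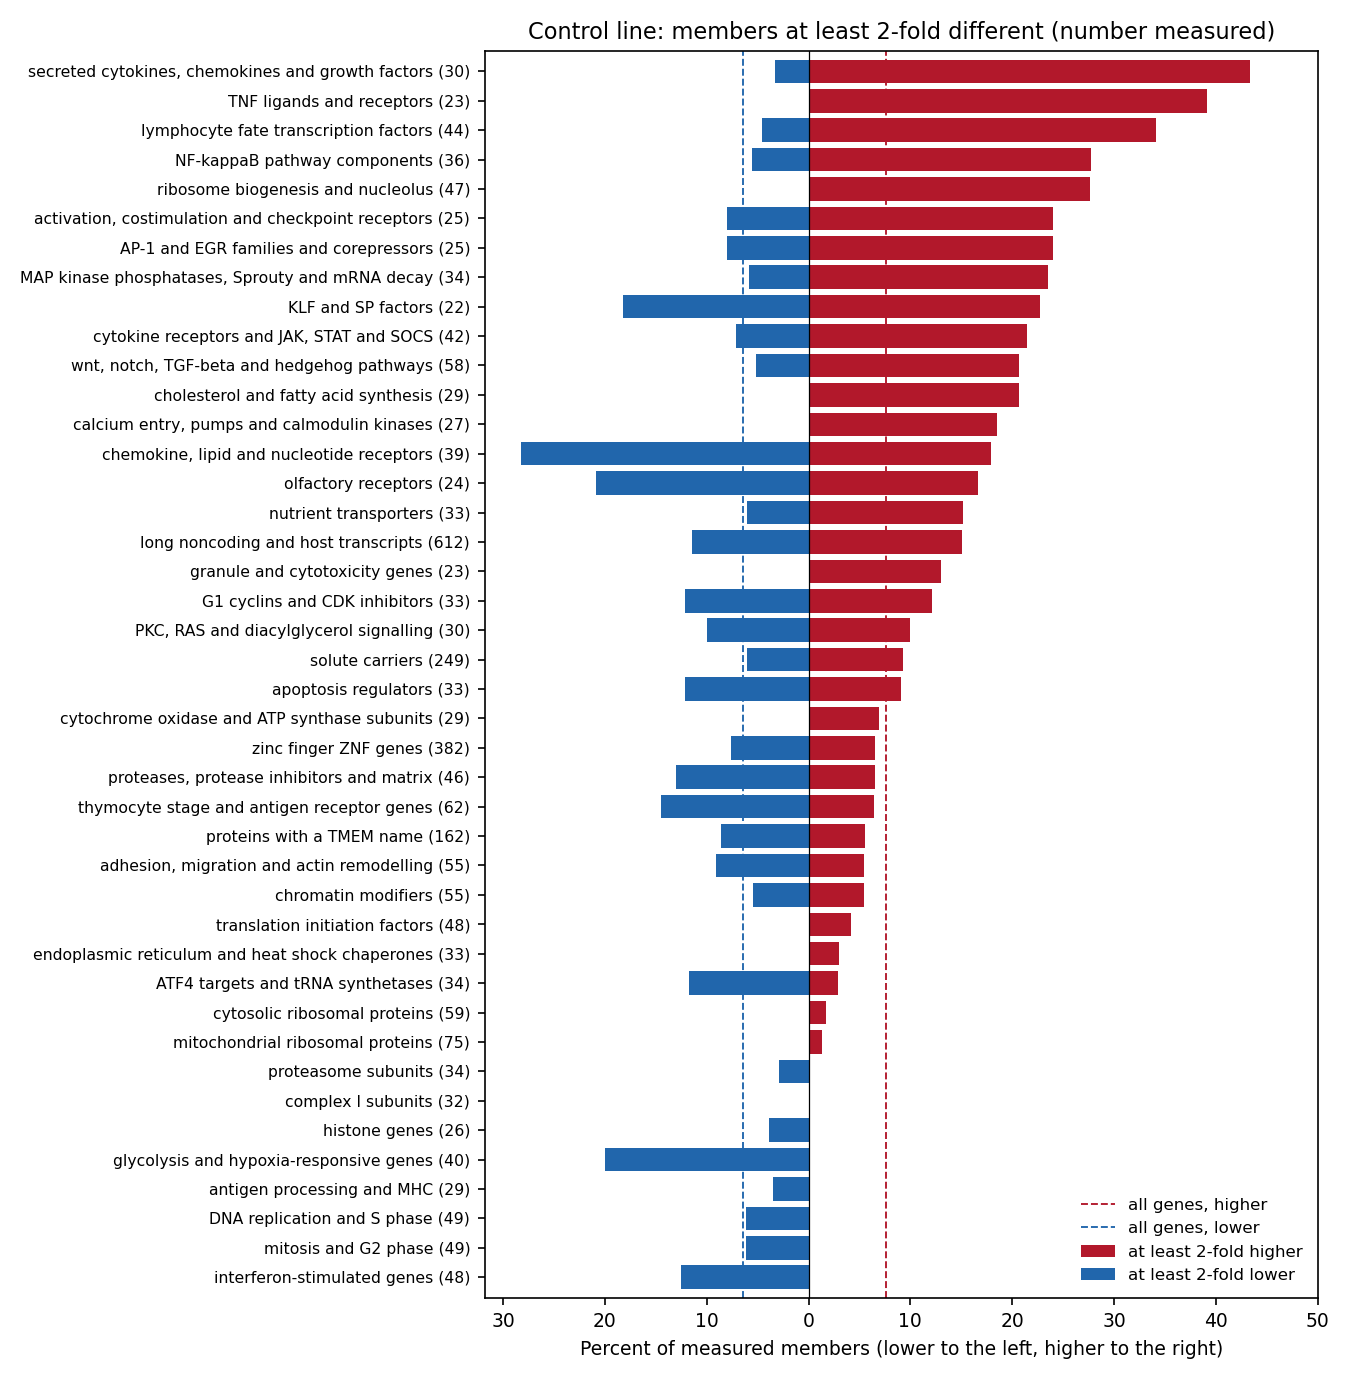
Percent of measured members of each gene list or family with 20 or more measured members that were at least 2-fold higher (red, to the right) or lower (blue, to the left) on the stimulated array of the control line, with the number measured in brackets. Dashed lines give the same shares of all genes, 7.57% higher and 6.44% lower. Secreted factors, TNF family members, lymphocyte factors, NF-κB components and ribosome biogenesis lie furthest to the right, and chemokine and lipid receptors furthest to the left.

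The genes of the kinases that PMA acts on were mostly within 2-fold. Of 30 measured genes of protein kinase C, RAS and diacylglycerol signalling, 3 were higher and 3 lower (10% each way). Of all genes, 7.57% were higher and 6.44% lower, the shares to set beside the counts of every list below. The median was -0.16 against -0.07 for all genes. PRKCQ, the main protein kinase C of T cells, read 2582 and 1082 (log2 -1.24, and -1.27 by a second probe set), whereas PRKCD, another isoform, read 148 and 399 (log2 1.35). DGKH and DGKZ, kinases that remove diacylglycerol, were at log2 1.31 and 1.07, with -0.45 by a second probe set of DGKZ. RASA3, which switches RAS off, read 677 and 316 (log2 -1.07), but a second probe set was at 1.98.

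Of 27 measured genes of calcium handling, 5 were higher and 0 lower, against 7.57% and 6.44% of all genes, with a median of 0.15. Arrays scaled to equal medians gave 2 higher and 1 lower, with a median of -0.14. ATP2B1, a pump that expels calcium through the plasma membrane, read 849 and 2576 (log2 1.59, and 1.31 and 1.79 by 2 further probe sets), and in the shIKKE line 931 and 2853 (log2 1.60). ITPKA, a kinase of inositol trisphosphate, read 166 and 493 (log2 1.49), and ITPR3, a calcium release channel, read 714 and 1694 (log2 1.23, with -0.80 to 0.80 by 3 further probe sets). Of 19 genes of NFAT and calcineurin, 17 lay within 2-fold. NFAT5, a member that responds to salt rather than calcium, read 652 and 1894 (log2 1.52, and 1.63 and 2.13 by 2 further probe sets).

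NF-κB components had 10 of 36 measured members higher and 2 lower (27.8% and 5.56%, against 7.57% and 6.44% of all genes). The median was 0.47. The subunit genes were among the higher members. RELB read 58.9 and 782 (log2 3.45), NFKB1 read 806 and 3586 (log2 2.14), and REL read 1478 and 5496 (log2 1.88, and 0.80 to 1.71 by 4 further probe sets). MAP3K8, a kinase that links NF-κB to the MAP kinases, read 34.2 and 309 (log2 2.75 and 1.61). NFKBID, a nuclear inhibitor, read 235 and 1982 (log2 3.00), with -0.10 and 1.91 by 2 further probe sets, and the inhibitor gene NFKBIA was at log2 1.84. RNF31, the catalytic subunit of the linear ubiquitin ligase, was lower at 234 and 56.2 (log2 -1.82), as was its partner RBCK1 at 6859 and 3397 (log2 -1.01). The list had 14 higher and 1 lower with the other baseline, and 13 and 0 in the shIKKE line.

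AP-1 and EGR genes differed most between the baselines. Of 25 measured, 6 were higher and 2 lower in the control line (median 0.06), against 12 and 0 with the other baseline (median 0.95) and 14 and 0 in the shIKKE line (median 1.71). The shares of all genes were 7.57% and 6.44%, 8.02% and 4.38%, and 10.3% and 2.68% in the same order. NAB1 and NAB2, corepressors that hold EGR factors in check, were higher either way: NAB1 read 1097 and 13316 (log2 3.58, with -0.11 to 3.56 by 3 further probe sets, and 3.97 with the other baseline). FOSL1, an AP-1 subunit, read 10.5 and 61.2 (log2 1.62). EGR4 was at log2 2.39 against 7.17 with the other baseline, and EGR1 at 1.22 against 4.47. FOSB was at log2 -2.27 against 3.74, and ATF3, a stress-induced factor, at -1.34 against 0.71, so the sign of both turned. JUN read 5059 and 2721 (log2 -0.89) and FOS read 288 and 385 (log2 0.40), within 2-fold.

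Transcription factors of lymphocyte fate held the third largest share of higher genes among the lists plotted. Of 44 measured, 15 were higher and 2 lower (34.1% and 4.55%, against 7.57% and 6.44% of all genes). The median was 0.49, and the other baseline gave 15 and 4 with a median of 0.48. The median was 0.13 over the 36 members with a mean signal of 200 or more, of which 11 were higher and 2 lower, and 0.12 with equal medians. NR4A3, an orphan nuclear receptor of antigen responses, read 151 and 945 (log2 2.54, with 0.24 and 2.40 by 2 further probe sets). TBX21, the T-bet factor of type 1 helper cells, read 64.1 and 412 (log2 2.44, and 2.45 with the other baseline), and BHLHE40, which supports cytokine production, read 282 and 1588 (log2 2.44, and 2.42 by a second probe set). RUNX3, a factor of cytotoxic cells, read 1028 and 4392 (log2 2.08 and 2.13) and 848 and 4152 in the shIKKE line (log2 2.27). HIVEP1, a zinc finger protein that binds κB sites, read 438 and 1716 (log2 1.93, and 0.93 by a second probe set). The lower members were IKZF2, the Helios factor, at 4527 and 1252 (log2 -1.84, and -1.52 with the other baseline) and RORA.

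Of the 61 secreted factors listed, 30 passed the filter on dim signal. Of these 30, 13 were higher and 1 lower, with a median of 0.45; a gene that is silent at rest passes the filter only if it is bright on a stimulated array, so the share says little about the list. The same holds for silent members of the other lists. CXCL8, a chemokine for neutrophils, read 1.83 and 229 (log2 3.94), but a second probe set was at -0.09. CCL1, a chemokine of activated T cells, read 12 and 218 (log2 3.15), IL3, a growth factor of blood cells, 1.78 and 102 (log2 2.87) and LIF, a cytokine of the interleukin 6 family, 4.81 and 71.5 (log2 2.18). IL4, the cytokine of type 2 helper cells, was the lower member at 343 and 118 (log2 -1.44 and -1.24), and at 0.21 with the other baseline.

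TNF ligands and receptors had 9 of 23 measured members higher (39.1%, against 7.57% of all genes) and none lower, with a median of -0.08. With the other baseline 4 were higher and 1 lower, and in the shIKKE line 7 and 0. Receptor genes made up 6 of the 9. TNFRSF12A, the receptor for TWEAK, read 121 and 668 (log2 2.33), and TNFRSF1A, the main TNF receptor, read 1258 and 3909.6 (log2 1.62), with 4.78 and 2.08 by the other baseline. TNFRSF8 and TNFRSF18, costimulatory receptors, were at log2 1.76 and 1.59, but 0.11 and 0.25 with the other baseline. TNFSF10, the death ligand TRAIL, read 643 and 1624 (log2 1.32, and 1.56 and 1.70 by 2 further probe sets).

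Of 42 cytokine receptors and JAK, STAT and SOCS genes, 9 were higher and 3 lower (21.4% and 7.14%), with a median of 0.09. The shares of all genes were 7.57% and 6.44%. Besides IL21R and IL27RA, IL2RB, the β chain of the interleukin 2 receptor, read 149 and 538 (log2 1.76), and IFNGR2, a chain of the interferon γ receptor, read 2018 and 5836 (log2 1.53). IL7R, the receptor for the survival cytokine interleukin 7, was lower at 2003 and 674 (log2 -1.55 and -1.14, and -0.85 with the other baseline). IFNAR2, a chain of the type I interferon receptor, was at log2 -1.32, against -0.26 with the other baseline. The latter gave 11 higher and 0 lower over the list.

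Chemokine, lipid and nucleotide receptors were the list with the largest share of lower genes, 11 of 39 (28.2%, against 6.44% of all genes). A further 7 were higher (17.9%, against 7.57%), and the median was -0.21. Of the 13 with a mean signal of 200 or more, 5 were lower and 2 higher. P2RY8, a receptor that keeps lymphocytes within germinal centres, read 6460.0 and 2012 (log2 -1.68), and 8004 and 3152 in the shIKKE line (log2 -1.34). CCR7, the receptor that guides T cells to lymph nodes, read 92 and 4.82 (log2 -2.49). C5AR1, the receptor for complement C5a, read 9.56 and 126 (log2 2.57), GPR183, an oxysterol receptor, 29.5 and 183 (log2 2.18) and RGS16, a G protein inhibitor, 3.56 and 78.4 (log2 2.39, but -0.58 by a second probe set). These 3 started near background. ACKR3, a scavenger of CXCL12, was at log2 -1.92 but 1.32 by a second probe set.

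Genes of thymocyte stages and of the antigen receptor were mostly within 2-fold, with 4 of 62 higher, 9 lower and a median of -0.23. These shares were 6.45% and 14.5%, against 7.57% and 6.44% of all genes. The balance turned with the other baseline, at 9 higher and 6 lower (median -0.02), and was 5 and 5 in the shIKKE line. Besides RAG1, RAG2 and GAB2, THEMIS, a regulator of thymocyte selection, read 5785 and 1880.2 (log2 -1.61 and -1.67). DNTT, the enzyme that adds bases at antigen receptor joints, read 5367 and 1919 (log2 -1.48, and -1.44 and -1.20 by 2 further probe sets), against 1860.1 and 1285 in the shIKKE line (log2 -0.53). With the other baseline THEMIS was at log2 -0.55 and DNTT at 0.04. PTPN7, a tyrosine phosphatase that acts on MAP kinases, was higher at 2181 and 7012 (log2 1.68 and 2.27).

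Adhesion and migration genes had 3 of 55 higher and 5 lower (5.45% and 9.09%, median -0.09), against 7.57% and 6.44% of all genes. Proteases and matrix genes had 3 of 46 higher and 6 lower (6.52% and 13.0%, median 0.03). They turned to 10 higher and 3 lower with the other baseline, and were 12 and 3 in the shIKKE line. RHOB, an early-response small GTPase, read 41 and 203 (log2 1.98), whereas RHOH, a GTPase of blood cells needed for T cell receptor signals, read 2615 and 753 (log2 -1.78, but 0.29 by a second probe set). SELPLG, the ligand of P-selectin, read 1619.9 and 557 (log2 -1.52 and -2.07) and 2651 and 737 in the shIKKE line (log2 -1.83). LGMN, a lysosomal protease, was at log2 -1.73 but 1.18 with the other baseline. COL6A3, a collagen chain, read 5.26 and 93 (log2 2.47).

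Inhibitors of the pathways were among the higher genes. Of 34 MAP kinase phosphatases, Sprouty proteins and mRNA decay factors, 8 were higher and 2 lower (23.5% and 5.88%). The shares of all genes were 7.57% and 6.44%. The median was 0.19, and the other baseline gave 13 and 2 (median 0.30). Arrays scaled to equal medians gave 7 higher and 6 lower, with a median of -0.10. ZFP36L1, which marks cytokine mRNA for decay, read 1329 and 5877 (log2 2.13 and 1.70), and its relative ZFP36 was at log2 1.70. SPRY4, an inhibitor of RAS signalling, read 189 and 764 (log2 1.94), and the phosphatase gene DUSP4 16 and 108 (log2 2.02). TOB1, an antiproliferative factor of resting T cells, was lower at 1948 and 536 (log2 -1.83 and -0.66).

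Of 58 genes of the WNT, NOTCH, TGF-β and hedgehog pathways, 12 were higher and 3 lower (20.7% and 5.17%), with a median of -0.09. The shares of all genes were 7.57% and 6.44%. LFNG, a glycosyltransferase that modifies NOTCH receptors, read 25.5 and 377 (log2 3.30), and 47.3 and 632 in the shIKKE line (log2 3.40). NRARP, an inhibitor and target of NOTCH, read 177 and 539 (log2 1.54). TGIF1, a corepressor of SMAD proteins, read 221 and 748 (log2 1.69, with -0.09 and 2.0 by 2 further probe sets). FZD2, a WNT receptor, was lower at 756 and 146 (log2 -2.27 and -0.77) and in the shIKKE line at 610.1 and 153 (log2 -1.90).

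Chromatin modifiers were near the background, with 3 of 55 higher and 3 lower (5.45% each way, median 0.08), against 7.57% and 6.44% of all genes. KDM6B, a histone H3 lysine demethylase induced in activated immune cells, read 662 and 1796 (log2 1.42, and 1.94 to 4.67 by 4 further probe sets), and TET3, an enzyme that oxidises methylated DNA, read 1638 and 5002 (log2 1.60). ARID5B, a DNA-binding factor of T cell leukaemia, was lower at 1858 and 369 (log2 -2.29, with -1.26 and 0.46 by 2 further probe sets). All 3 were called the same way with the other baseline.

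Nutrient transporters had 5 of 33 higher and 2 lower (15.2% and 6.06%, median 0.37), against 7.57% and 6.44% of all genes. SLC7A5, the large neutral amino acid transporter of activated T cells, read 6199 and 13404 (log2 1.11). SLC7A11, the cystine transporter, read 762 and 2198 (log2 1.51, with 0.37 and 1.72 by 2 further probe sets). SLC19A1, a folate carrier, read 1193 and 3265 (log2 1.44, with 0.63 to 2.40 by further probe sets). Of 29 genes of cholesterol and fatty acid synthesis, 6 were higher and 0 lower (median 0.13), but 0 higher and 2 lower with the other baseline (median -0.40). HMGCS1, an early enzyme of the sterol pathway, read 973 and 2432 (log2 1.31) in the control line and 3098 and 7964 in the shIKKE line (log2 1.36), from different starting levels. STARD4, a sterol carrier, read 841 and 2500.2 (log2 1.56, and 0.80 with the other baseline).

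Glycolysis and hypoxia-responsive genes were called lower only, in 8 of 40 measured, against 6.44% of all genes, with a median of -0.34. BNIP3, a mitochondrial protein of mitophagy, read 6975 and 2001 (log2 -1.79 and -1.84). PDK1, a kinase that turns pyruvate away from mitochondria, read 3819.7 and 1483 (log2 -1.36, with -0.93 and 0.23 by 2 further probe sets), and ALDOC, an aldolase, read 1500.3 and 467 (log2 -1.65). In the shIKKE line the same 3 genes read 2686 and 2569.9, 941 and 782 and 291 and 319, so that both of its arrays lay nearer the stimulated than the solvent control array. PFKFB4, a regulator of glycolysis, was lower in both lines, at 1217 and 156 (log2 -2.86) and 430.1 and 112 (log2 -1.82). Over the list the median was 0.03 with the other baseline, with 3 higher and 2 lower, and -0.08 in the shIKKE line, with 1 higher and 2 lower. Whether the solvent array of the control line or the treatment set these values cannot be told apart with 1 array a group.

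The upstream bases of BNIP3 hold the core motif of hypoxia-inducible factors (ACGTG) on both strands of 1 palindrome, CACGTG, in capitals.
BNIP3, chr10:131981924-131982173, minus strand: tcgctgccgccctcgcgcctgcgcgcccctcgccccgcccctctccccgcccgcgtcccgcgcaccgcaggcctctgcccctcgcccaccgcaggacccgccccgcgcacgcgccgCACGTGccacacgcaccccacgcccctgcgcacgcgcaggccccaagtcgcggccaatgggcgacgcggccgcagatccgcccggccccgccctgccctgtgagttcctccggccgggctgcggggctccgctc
The core motif was in the promoters of 14 of the 34 list members found in the promoter table (41.2%), against 25.9% of measured genes and 21.6% of all 27305 promoters. The list was chosen for known responses to low oxygen, which is not independent of that motif.

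Of the lists with 20 or more measured genes, ribosome biogenesis had the largest share on 1 side of 0. Of 47 measured genes, 45 were above 0, 13 were higher (27.7%, against 7.57% of all genes) and 0 lower, with a median of 0.71 against -0.07. All 47 had a mean signal of 200 or more. UTP20, a subunit of the small subunit processome, read 851 and 3625 (log2 2.07), POLR1B, a subunit of RNA polymerase I, read 1229 and 3149 (log2 1.35, and 1.17 to 1.45 by 3 further probe sets), and DDX21, a nucleolar helicase, read 10931 and 23581 (log2 1.11 and 1.14). These values were not repeated elsewhere: none of the 47 was called in the shIKKE line (median -0.16) or with the other baseline (median -0.06). In the shIKKE line UTP20 read 3178 and 3679.9, POLR1B 3042 and 3146 and DDX21 20501 and 21306, so that 3 of the 4 arrays were alike and the solvent array of the control line was low. RRP12, MYBBP1A, TAF1D and WDR43, factors of ribosomal RNA transcription and processing, showed the same order, as with MYBBP1A at 451 and 1315 and 1339.7 and 1119. The ACTB 5′ to 3′ ratio was lowest on that solvent array (0.244, against 0.266 to 0.401), and its part in the result was not tested. The median was 0.42 with 6 genes higher when the arrays were scaled to equal medians.

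Promoters of ribosome biogenesis genes often hold the E-box CACGTG, a motif of MYC and related factors. It was found in 14 of the 38 members in the promoter table (36.8%), against 9.94% of measured genes and 7.4% of all promoters, and it contains the hypoxia core motif ACGTG on both strands. The ETS motif CCGGAAG was found in 34.2% of them, against 18% and 10.7%. Capitals mark the E-box in 2 members, chosen after their values were seen because it lies before the start site.
UTP20, chr12:101279855-101280104, plus strand: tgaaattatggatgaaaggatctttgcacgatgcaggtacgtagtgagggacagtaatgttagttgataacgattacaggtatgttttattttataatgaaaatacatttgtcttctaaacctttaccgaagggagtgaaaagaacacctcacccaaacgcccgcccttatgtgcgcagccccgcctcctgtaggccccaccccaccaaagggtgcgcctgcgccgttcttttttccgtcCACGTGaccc
UTP14A, chrX:129905914-129906163, plus strand: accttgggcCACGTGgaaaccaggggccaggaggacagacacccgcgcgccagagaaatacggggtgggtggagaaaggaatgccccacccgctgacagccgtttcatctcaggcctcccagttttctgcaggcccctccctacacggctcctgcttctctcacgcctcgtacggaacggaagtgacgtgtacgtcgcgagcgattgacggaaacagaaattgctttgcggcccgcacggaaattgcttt
UTP14A read 1110.4 and 2563 (log2 1.20) in the control line and 2516 and 2515 in the shIKKE line. The 14 members with the E-box had a median log2 change of 0.90 and the 24 without it 0.63. MYC itself read 7663 and 2839 (log2 -1.43), and 12539 and 2702 in the shIKKE line (log2 -2.21).

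**Figure D4:**
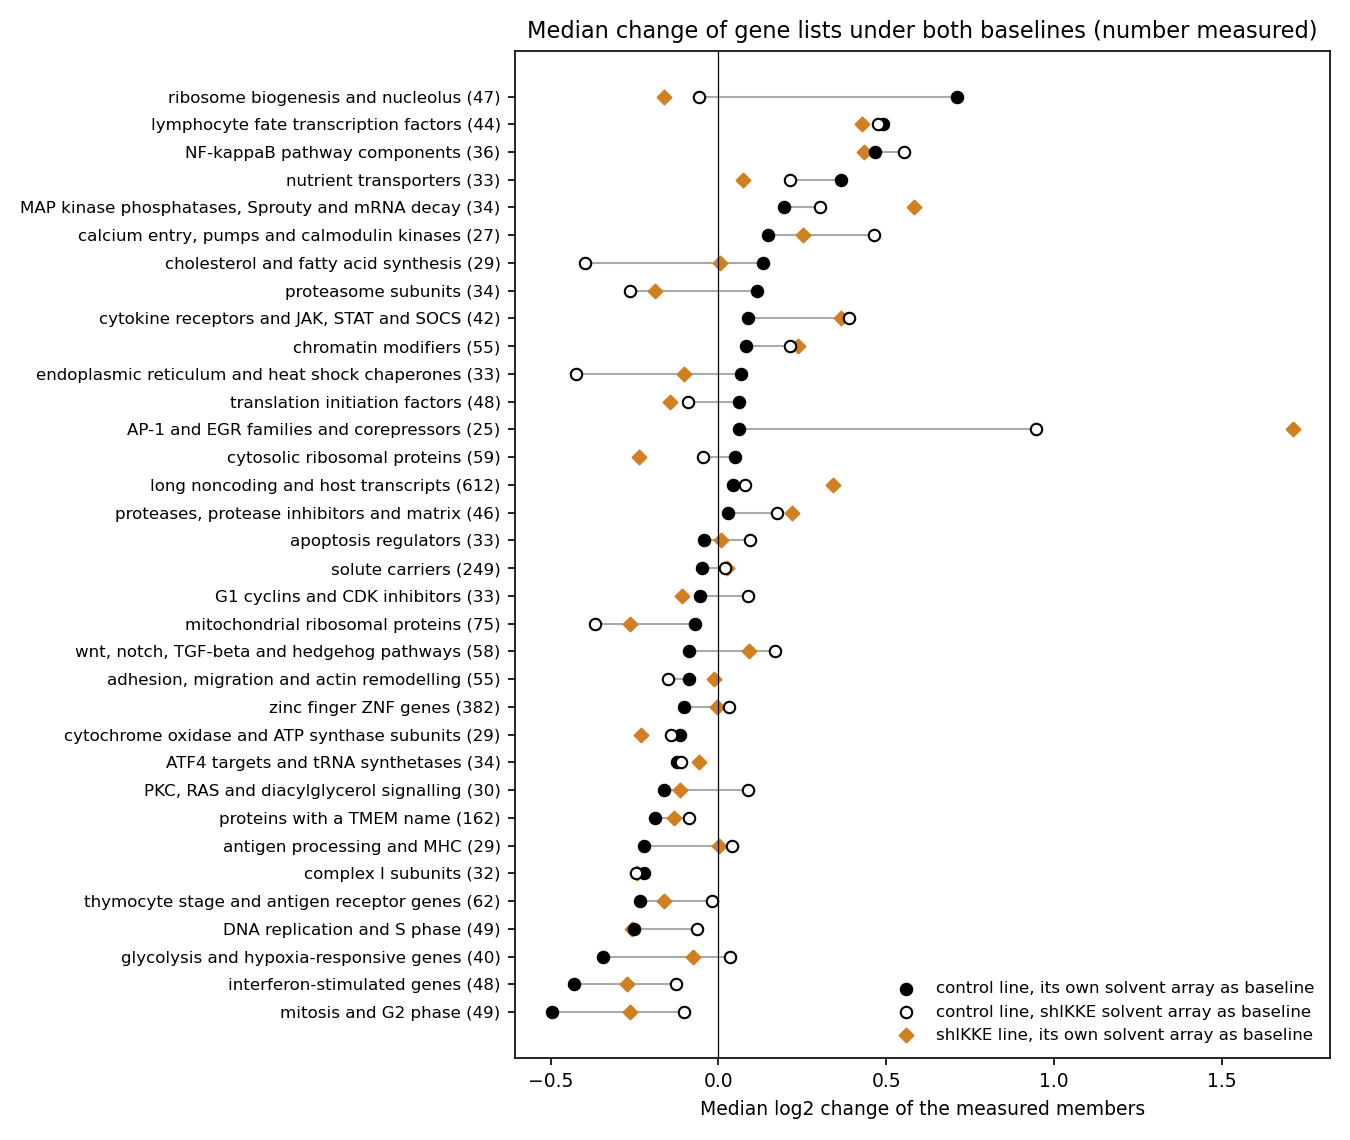
Median log2 change (horizontal) of gene lists with 24 or more measured and 20 or more brighter members: filled circles are the control line against its own solvent array, open circles the control line against the shIKKE solvent array, and diamonds the shIKKE line against its own. Ribosome biogenesis (0.71, -0.06 and -0.16) and AP-1 and EGR genes (0.06, 0.95 and 1.71) move furthest with the baseline, whereas the medians of lymphocyte fate factors and NF-κB components lie between 0.43 and 0.55 here, over members of any level past the filter. The 3 values share arrays and are not independent.

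Genes of mitosis and DNA replication had medians below that of all genes, with few calls. Of 49 genes of mitosis and G2 phase, 0 were higher and 3 lower (6.12%, against 6.44% of all genes). Only 7 were above 0, and the median was -0.50 against -0.07. With the other baseline the median was -0.10 and in the shIKKE line -0.26. TTK, a kinase of the spindle checkpoint, read 3200.4 and 1470.0 (log2 -1.11, and -0.78 with the other baseline). CDC25C, a phosphatase of mitotic entry, read 984 and 363 (log2 -1.40, with -0.86 and -0.22 by 2 further probe sets, and 0.06 with the other baseline). Of 49 genes of DNA replication, 3 were lower and 0 higher (6.12% lower, median -0.25), and none was called with the other baseline (median -0.06). In the shIKKE line 2 were lower and 0 higher (median -0.26). CDT1, which licenses origins, was 1 of the 3 at 3879 and 1474 (log2 -1.39 and -1.41). It was at -0.46 with the other baseline and -0.27 in the shIKKE line. Of 33 G1 regulators, 4 were higher and 4 lower (12.1% each way, against 7.57% and 6.44% of all genes), with a median of -0.06. CDKN1A, the inhibitor p21, read 245 and 1312 (log2 2.36), and MXD3, a partner of MAX, 907 and 189 (log2 -2.18).

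Apoptosis regulators had 3 of 33 higher and 4 lower (9.09% and 12.1%, against 7.57% and 6.44% of all genes), with a median of -0.04. BCL2A1, a survival protein of the BCL2 family, read 51.6 and 456 (log2 2.84). HRK, a death-promoting member, read 116 and 28.5 (log2 -1.61 and -0.48), and APAF1, the core of the apoptosome, 1182 and 474 (log2 -1.29 and -0.25, and -0.23 with the other baseline). PHLDA1 and IER3 were the other higher members and BNIP3 and BNIP3L the other lower ones.

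Interferon-stimulated genes were called lower only, in 6 of 48 measured (12.5%, against 6.44% of all genes), with 8 above 0 and a median of -0.43. GBP1, a GTPase of host defence, read 678 and 260.3 (log2 -1.33, and -1.17 and -1.10 by 2 further probe sets), against 358 and 577 in the shIKKE line (log2 0.67). CMPK2, a mitochondrial nucleotide kinase, read 3711 and 1568 (log2 -1.24, and -1.17 with the other baseline). The list had a median of -0.13 with the other baseline and -0.27 in the shIKKE line, where 1 member was higher and 2 lower. Of 29 genes of antigen processing and MHC, 1 was lower, PSMB9 of the immunoproteasome at 2802 and 1391 (log2 -1.0, and 0.13 with the other baseline), and 0 higher (median -0.22). ATF4 targets and tRNA synthetases had 1 of 34 higher and 4 lower (2.94% and 11.8%). DDIT3, the stress factor CHOP, read 364 and 1467 (log2 1.97, and 1.72 with the other baseline). VLDLR, a lipoprotein receptor, read 544 and 155 (log2 -1.73), but was at -0.26 with the other baseline and -0.31 in the shIKKE line. Chaperones had 1 of 33 higher, DNAJB6 (log2 1.12, but -0.42 with the other baseline), and 0 lower.

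Cytotoxic granule genes had 3 of 23 higher and 0 lower (13.0% higher, median -0.02), against 7.57% and 6.44% of all genes. CRTAM and GZMB led them, and with the other baseline they were at log2 6.56 and 3.87. PRF1, the pore-forming perforin, read 233 and 520.3 (log2 1.11 and 0.98), but was at 0.24 with the other baseline and -0.09 in the shIKKE line. Activation and checkpoint receptors had 6 of 25 higher and 2 lower (24% and 8%, median 0.19). CD83, a surface protein of activated lymphocytes, read 1916 and 13048 (log2 2.76) and SLAMF1, a costimulatory receptor, 21.7 and 87 (log2 1.5, but 0.23 by a second probe set). LAIR1, an inhibitory collagen receptor, was lower at 963 and 444 (log2 -1.09), and at 0.00 with the other baseline.

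Housekeeping families lay mostly within 2-fold. Among 59 cytosolic ribosomal proteins, 75 mitochondrial ribosomal proteins, 34 proteasome subunits and 48 translation initiation factors, 4 were higher and 1 lower in all, with medians of 0.05, -0.07, 0.11 and 0.06. EIF5, an initiation factor, was 1 of the 4 at 4433 and 12285 (log2 1.47, and 1.08 to 1.58 by 4 further probe sets), against 12228 and 13186 in the shIKKE line. KLF and SP factors had calls both ways, with 5 of 22 higher and 4 lower (22.7% and 18.2%, against 7.57% and 6.44% of all genes). Most of these calls were in dim members: of the 15 with a mean signal of 200 or more, 2 were higher and 1 lower. KLF10, an early TGF-β response factor, read 6901 and 17179 (log2 1.31) and KLF4, a factor of quiescence, 364 and 85.4 (log2 -1.93). With the other baseline they were at log2 4.02 and -0.74, and in the shIKKE line at 4.04 and -0.56. Zinc finger ZNF genes were near the background, with 25 of 382 higher and 29 lower, as were solute carriers, with 23 higher and 15 lower. SLC32A1, the vesicular transporter of inhibitory neurotransmitters, read 26.7 and 380.2 (log2 3.27, and 3.79 in the shIKKE line).

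How far probe sets of 1 gene agreed depended on direction and level. Of 380 higher genes with 2 or more probe sets, 139 (36.6%) were at least 2-fold higher by all of them and 103 (27.1%) had 1 or more below 0. Of 315 lower genes, 66 (21.0%) were at least 2-fold lower by all and 103 (32.7%) had 1 or more above 0. In 17 of the higher and 35 of the lower genes another probe set was at least 2-fold the opposite way. Between the 2 brightest probe sets of a gene, the median difference of log2 changes was 0.84 where the dimmer one had a mean signal under 50, and 0.16 where it reached 2000. They differed by at least 2-fold in 44.0% and 1.16% of genes, respectively.

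Some probe sets of 1 gene that each reached a signal of 200 on an array went opposite ways, though some read under 56.4 on the other array. PLXNC1, a semaphorin receptor, read 334 and 102 by its brightest probe set (log2 -1.58) and 14.5 and 222 by the next (log2 3.05). GIT2, an ARF GTPase regulator, read 912 and 1940.0 (log2 1.08) and 1497 and 382 (log2 -1.93). HECTD2, a ubiquitin ligase, read 345 and 759 (log2 1.11) and 467 and 101 (log2 -2.07), and ZBTB24, a factor of DNA methylation, 712 and 1219 (log2 0.76) and 558 and 143 (log2 -1.87). EVL, an actin regulator, read 3856 and 3674 by the brightest (log2 -0.07) and 208 and 1247 by the next (log2 2.50), so a gene within 2-fold here can hide a probe set that is not. NUTM2B-AS1, MACROD1, RBM33, ZNF226 and FRA10AC1 completed the 10 largest such disagreements. The files used here do not pair probe sets with single transcripts.

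Calls became rarer as the level rose. Under a mean control signal of 50, 18.3% of 1621 genes were higher and 16.8% lower, while from 2000 up these were 2.89% and 2.02% of 3459 genes. Olfactory receptors, which T cells are not known to use, are examples from the dim end. Of 24 past the filter, 4 were higher and 5 lower, and none had a mean signal of 200 or more. OR1Q1, for example, read 54.8 and 151 (log2 1.26) and OR12D2 read 75.7 and 7.44 (log2 -2.06). The share of these receptors called, 37.5%, was above the 14.02% of all genes, and near the 35.1% of genes under a mean of 50.

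**Figure D5:**
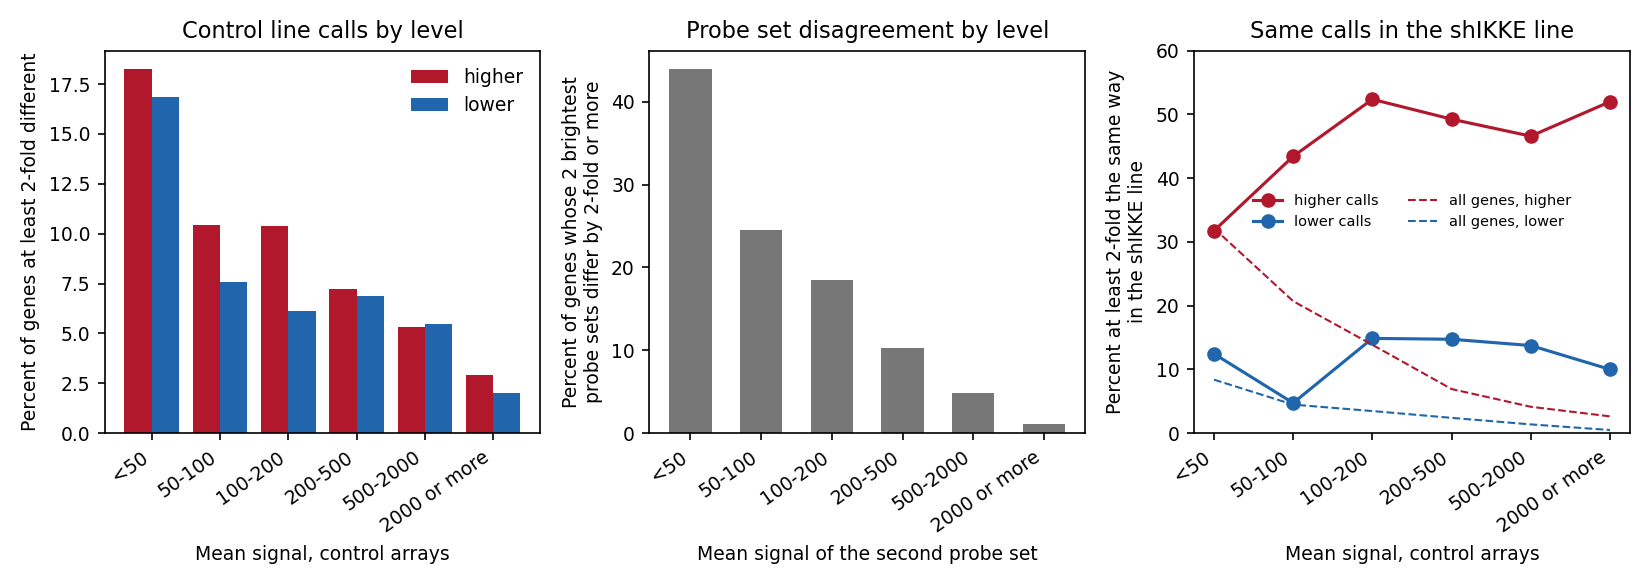
Genes binned by mean signal (horizontal). Left, percent at least 2-fold higher (red) or lower (blue) in the control line, from 18.3% and 16.8% in the dimmest bin to 2.89% and 2.02% in the brightest. Middle, percent of genes whose 2 brightest probe sets differ by 2-fold or more, from 44.0% to 1.16%. Right, percent of the control-line calls also at least 2-fold the same way in the shIKKE line (solid), with the share of all genes called there (dashed). In the dimmest bin genes low on both control arrays passed the filter only through a shIKKE array. The solid and dashed shares cannot be compared there.

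The shIKKE line received the same treatment on 2 further arrays, so it shows which calls recur on arrays that the comparison did not use, though the hairpin differs too. Of the 1039 higher genes of the control line, 451 were also higher in the shIKKE line, 43.4% of these and 31.8% of the 1417 of the shIKKE line, and 26 were lower. Of the 884 lower genes, 106 were also lower, 12% of these and 28.8% of the 368 of the shIKKE line, and 100 were higher (11.3%), near the 10.3% of all genes called higher there. Of all genes, 2.68% were lower there. With a mean signal of 200 or more, the higher genes recurred in 215 of 442 (48.6%) with 0 opposite, and the lower genes in 55 of 410 (13.4%) with 5 opposite. Of all genes at that level, 4.14% were higher and 1.25% lower in the shIKKE line. Higher genes called by all of several probe sets recurred in 58.3% of 139, those with 1 probe set in 42.5% of 659 and those with a probe set below 0 in 37.9% of 103. With a mean signal of 200 or more, the first and second of these shares were 55.8% and 55.7%. For lower genes of any level, 9.09% of 66 recurred where all of several probe sets were called. With 1 probe set 12.5% of 569 did, and with a probe set above 0 14.6% of 103. Under a mean signal of 50 the higher genes recurred in 31.8%, and 32.1% of all genes at that level were called higher in the shIKKE line. At that level genes low on both control arrays passed the filter only through a shIKKE array. These shares therefore cannot be compared and do not show how well dim calls recur.

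The share of higher genes next to another higher gene was little above that of genes in general. Of 1035 higher genes placed on the RefSeq gene order of GRCh38.p14, 185 (17.9%) had a neighbouring measured gene that was also higher, against 14.3% of all measured genes. For lower genes the shares were 14.4% and 12.3%. The best known such group is LTA, TNF and LTB in the MHC region, with LTA at 57.7 and 344 (log2 2.32). Other pairs were IFNG and IL26, cytokines of 1 locus, with IL26 at 17.2 and 246 (log2 3.06); IL4R and IL21R, with IL4R at 256 and 598 (log2 1.18); and TBX21 and TBKBP1, with TBKBP1, an adaptor of the kinases TBK1 and IKKε, at 24.7 and 244 (log2 2.73). IL2 and ADAD1, the latter better known from testis, were both higher, with ADAD1 at 35.3 and 90.4 (log2 1.08). KDM6B and TMEM88, a membrane protein of WNT signalling, were another pair, with TMEM88 at 25.6 and 327 (log2 3.10).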

How the data were processed

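RNA of 4 Jurkat cultures (6 ug each, per the labels' protocols) was measured on 4 oligonucleotide arrays, 1 a group. The authors deposited 1 value table of linear intensity signals, processed with MAS5 per the submitters' processing notes, with a common trimmed mean of 500.07 on all arrays. No scanner files were used here, so background correction and probe summaries could not be redone. Of 54675 probe sets, 62 are array controls, 41091 have 1 gene symbol, 1801 several and 11721 none, and 41037 of the named ones matched RefSeq.

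Values were taken as log2(signal + 14.1), where 14.1 is the 25th percentile of all signals. Probe sets whose highest signal over the 4 arrays was under 56.4 were left out. With 1 array a group, no test was run, called means a difference of at least 2-fold, and the number of arrays limits the precision. The 1801 probe sets with several symbols were left out.

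The members, the gene lists and the families were chosen with earlier results of these data known, and the lists of mitochondrially encoded and microRNA host transcripts were added after the values were seen. Genes were named where they had the 15 largest changes of either sign among genes with 2 or more probe sets all past 2-fold, or the 10 largest among genes with 1 probe set, the 10 largest linear gains or losses, the 6 largest changes of a list, the 10 largest disagreements of probe sets, or were cell type markers. JUN, FOS, RNF31, RBCK1, CCL1, IL3, LIF, IL4, IFNAR2, TNFSF10, P2RY8, ZFP36, LAIR1, OR1Q1, UTP14A and the genes named only as neighbours fall outside this rule and were chosen after their values were seen.

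Alternatives were a pseudocount of 1 or 56.4, no filter, a mean control signal of at least 200, quantile, equal-median and cyclic loess scaling (limma 3.58.1, R 4.3.3), other choices among probe sets, and the shIKKE solvent array in place of the control one. All else was computed with pandas 2.3.3 under Python 3.11.15, and the scripts were tested on simulated data.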

Additional observations from a re-analysis of the deposited data

Results flagged for a closer look

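Several named genes were at least 2-fold different in opposite directions in the 2 lines, with 1 array on each side, so the difference was not tested. The values are log2 changes of the control line, then of the shIKKE line. FOSB was at -2.27 and 3.88, and ATF3 at -1.34 and 1.71. DHRS3, a retinal reductase, was at -2.89 and 1.46, and CHAC1, an enzyme that degrades glutathione, at -1.22 and 1.42. SLC38A2-AS1 was at -2.08 and 1.87, SCARF2, a scavenger receptor, at -1.92 and 1.25, CFAP74, a protein of cilia, at -1.92 and 1.17, and NUTM2B-AS1 at -1.12 and 1.02. Each of these 8 genes was lower in the first and higher in the second.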

How the results depend on the processing

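The counts of 1039 higher and 884 lower genes, of 489 called genes whose further probe sets share the direction and of 557 called the same way in the shIKKE line depend on the dim end of the scale. A pseudocount of 56.4 gave 541, 435 and, for the last of these, 292. Without the filter 1648 genes were higher and 1380 lower. A mean control signal of at least 200 gave 444, 412, 248 and 272. Equal medians gave 686 higher and 1708 lower, and probe sets named _at alone gave 280 with further probe sets in the same direction, over fewer probe sets. The other counts that could be computed stayed within 1.5 times. With the shIKKE solvent array as the baseline the number called in both lines was not computed, since both comparisons would share that array.

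Of 179 called genes named in the text, 178 stayed past 2-fold with a pseudocount of 1, 167 with a pseudocount of 56.4, 175 with quantile normalization, 165 with equal medians and 176 with cyclic loess. The shIKKE solvent array as the baseline kept 110 past 2-fold and 50 at the same sign, and turned 19. Of these, ACYP1 came to 0.006, ALDOC to 0.66, ATF3 to 0.71, BNIP3L to 0.10, CDC25C to 0.06, CR2 to 2.20, DNTT to 0.045, FOSB to 3.74, IL4 to 0.21, LAIR1 to 0.002, LGMN to 1.18, MACROD1 to 1.26, NUTM2B-AS1 to 0.55, PDK1 to 0.65 and PSMB9 to 0.14. DNAJB6 came to -0.42, HMGCS1 to -0.35, MYBBP1A to -0.026 and RRP12 to -0.12. The median of probe sets turned HECTD2 to -0.48, MACROD1 to 0.34, NUTM2B-AS1 to 0.47, PLXNC1 to 0.73 and RASA3 to 0.46. Probe sets named _at alone turned DGKZ to -0.45, ITPR3 to -0.80, LTB to -0.068, NFKBID to -0.10 and TGIF1 to -0.086. A pseudocount of 1 turned RGS16 to -0.78. The cause was not tested. No paired analysis was possible because each group is 1 array. The lower signal of the pair lay under 56.4 in 531 of the higher and 418 of the lower genes.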
